A study of Mus musculus with 8 samples.

Results

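The genes described here are the protein components of the cytosolic ribosome in mouse CD4+ T cells. They were chosen by name: protein-coding genes whose symbol is Rpl or Rps followed by a digit, together with Rplp0, Rplp1, Rplp2 and Rpsa, leaving out the 10 rows of Rps6k kinases. The rule found 92 of the 39056 genes in the count table. Of these, 77 are core genes (46 of the large and 31 of the small subunit), 7 are paralogs whose symbols end in l (Rpl3l, Rpl7l1, Rpl10l, Rpl22l1, Rpl36al, Rpl39l and Rps27l), and 8 carry a name that adds another word, such as Rps27rt, Rps19bp1 and Rpl9-ps6. A further 273 pseudogene rows with such names are not members and are given only as a sum.

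RNA was sequenced from CD4+ T cells sorted from spleen and lymph nodes, which were pooled. The C57BL/6J animals had received bone marrow transduced by retrovirus with a T cell receptor (TCR) alpha chain. The chain was called ANT in 4 libraries (replicates 1, 3, 4 and 5) and SAS in 4 libraries (replicates 1, 2, 3 and 6). Both groups carry the same genotype label, CD4-Cre TCRβtg Tcra-/-: a Cre driven by the CD4 promoter, a transgenic TCR beta chain and no endogenous alpha gene. The receptor therefore comes from an integrated retrovirus, and the groups compare cells with 1 alpha chain each. Age, and whether each library came from its own mouse, are not given in the sources used here, so the p-values measure the spread between these libraries only. Libraries held 27600959 to 31810799 counts and are named here by group and replicate (ANT1, SAS6).

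A ribosome holds 1 copy of nearly every ribosomal protein, and a cell makes the proteins of both subunits in matched amounts for assembly with ribosomal RNA in the nucleolus. Their messenger RNAs are among the most abundant in lymphocytes and typically begin with a run of pyrimidines, the 5′ terminal oligopyrimidine (TOP) motif, through which mTOR signalling controls their translation. When a T cell leaves quiescence it enlarges its nucleolus and its translation machinery. Paralogs such as Rpl22l1 and Rps27l are second genes for a related protein.

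Promoter windows of RefSeq (build GRCm38.p6) could be matched for 57 of the 77 core genes. A run of at least 8 pyrimidines (C or T) that starts with C, on the gene's own strand and between 20 bases before and 30 bases after the annotated start, was found in 31 of the 57 (54.4%). The same search found it in 18.1% of the 9207 tested genes with a promoter and in 17.0% of all 27025 promoters. Rps16, Rpl12 and Rpl41, whose levels are also followed below, had no matched window or no run in it. Windows are shown only for genes with a run, namely some of the core genes followed below and the paralog Rps27l. The pyrimidine run is in capitals, and each window is 30 bases long and written 5′ to 3′.
Rps27: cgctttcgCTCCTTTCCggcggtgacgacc
Rps24: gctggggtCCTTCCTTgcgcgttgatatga
Rps12: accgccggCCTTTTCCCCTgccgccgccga
Rps26: cgccggatCCTCTTTCgagtcttggctcca
Rpl28: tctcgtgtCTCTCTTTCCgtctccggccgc
Rps27l: cctctccaCTCCTCCCCgccgcctctatcc
They lie at chr3:90213629-90213658 (minus strand, Rps27), chr14:24490668-24490697 (plus, Rps24), chr10:23787180-23787209 (minus, Rps12), chr10:128626481-128626510 (minus, Rps26), chr7:4792955-4792984 (plus, Rpl28) and chr9:66946066-66946095 (plus, Rps27l). Such a run is a match of letters at an annotated start, and transcription starts were not measured. The heptamer CGGAAGT, searched on both strands of the 300-base promoter, was in 35.1% of the core promoters and in 16.1% of those of tested genes. AAGATGG, searched the same way, was in 15.8% and 8.78%.

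Core ribosomal protein genes took a larger share of all counts in most ANT libraries. The share was 10.01% in ANT1, 9.76% in ANT3, 7.94% in ANT4 and 6.66% in ANT5, against 7.50% in SAS1, 5.42% in SAS2, 6.19% in SAS3 and 6.05% in SAS6. SAS1 lay above ANT5, so the groups overlapped. Means were 8.59% ± 1.58 in ANT and 6.29% ± 0.875 in SAS (SD, n = 4 each), a difference smaller than the spread allows for a call (exact permutation p = 0.0571, two-sided, where 0.0286 is the smallest possible). Without ANT1 and ANT3, SAS minus ANT fell from -2.30 to -1.01 percentage points. Leaving out ANT5 (-2.95 points) or SAS1 (-2.71 points) ended the overlap, which follows from the choice, since these are the libraries that cross. The exact permutation p was 0.0286 without ANT5, and 0.0571 to 0.114 without each other single library. Both subunits moved alike: the large-subunit share was 4.59% ± 0.822 and 3.45% ± 0.461, and the small-subunit share 4.01% ± 0.761 and 2.84% ± 0.414. In bulk libraries, fewer cells with many such transcripts and less such RNA in each cell cannot be told apart.

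**Figure D1:**
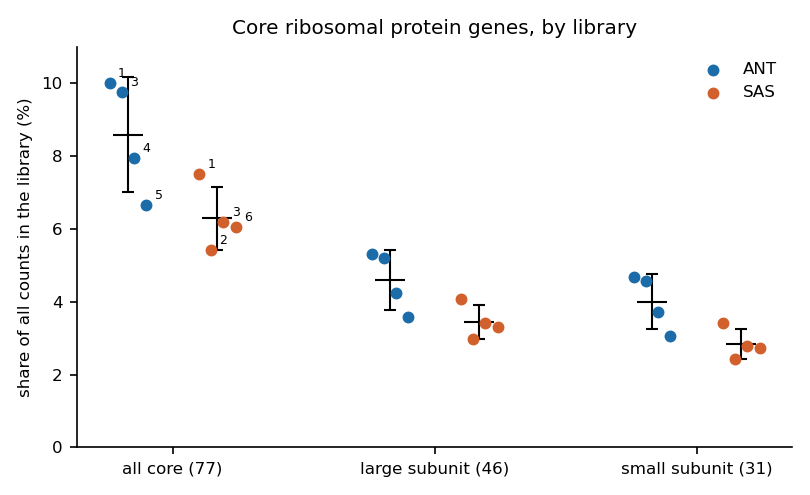
Share of all counts (%) that fell on core ribosomal protein genes in each library, for all 77 core genes and for each subunit. Points are libraries with the replicate number beside them, bars are the mean and SD of 4 libraries, and SAS1 at 7.50% lies above ANT5 at 6.66%.

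Other library measures are given beside these shares, and their part in the result was not tested. Mitochondrial genes took 2.54% and 2.44% of counts in ANT1 and ANT3, 1.62% and 1.54% in ANT4 and ANT5, and 1.56% to 2.04% in SAS. Summed levels of 15 early-response genes that rise when tissue is dissociated were 4294 counts per 1000000 (CPM) in ANT1, 3320 in ANT3, 4930 in ANT4 and 5116 in ANT5, and 2571 to 4769 CPM in SAS. The predicted transcripts Gm42418 and Gm26917, known to collect ribosomal RNA reads, took 0.138% to 0.402% in ANT and 0.129% to 0.990% in SAS, with SAS2 highest. T cell identity genes (10 of 10) were expressed in every library, with Cd4 at 871 to 1008 CPM in ANT and 857 to 1005 in SAS. Their sum was 5319 to 6216 CPM in ANT and 4981 to 5272 in SAS without overlap, with Thy1 (-1.89) and Trac (-0.65) called higher in ANT and Cd5 (1.67) higher in SAS. Of other cell types, the summed B cell list was 645 to 698 CPM in ANT and 127 to 190 in SAS, nearly all of it Ighm, while Ms4a1 stayed at or below 0.517 CPM. Of the 5 tested B cell genes, 2 were called higher in ANT, 0 higher in SAS and 3 were not called (median log2 fold change 0.17). The NK list summed to 33.7 to 41.9 and 3.502 to 6.14 CPM, mostly Prf1, with Ncr1, Klra8 and Klre1 at 0 in all libraries. Of its 3 tested genes, 2 were called higher in ANT and 1 higher in SAS. CD8 genes summed to 14.1 to 66.8 and 1.99 to 4.49 CPM, and 1 of the 2 tested was called, higher in ANT. Myeloid genes summed to 22.3 to 36.6 and 22.9 to 33.7 CPM, with Fcgr1 and Xcr1 at 0. Of the 3 tested myeloid genes, 1 was called higher in SAS and 0 higher in ANT.

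Gene by gene, edgeR's quasi-likelihood test called 48 of the 77 core genes higher in ANT and 0 higher in SAS, at an adjusted p under 0.05 over 12619 genes. All 77 passed the low-count filter. Over all genes tested, 37.4% were called, 17.7% as higher in ANT and 19.8% as higher in SAS. At an unadjusted p under 0.05, 60 core genes passed, as did at least the 37.4% of all genes called after adjustment. The full share of all genes at that threshold was not counted. Log2 fold changes (SAS minus ANT) ran from -1.35 to 0.08 with a median of -0.55, against -0.00318 over all genes tested, and 72 of 77 were below 0. Small-subunit genes were called in 24 of 31 cases (median -0.66) and large-subunit genes in 24 of 46 (median -0.49). DESeq2 called 56 core genes higher in ANT, where it did so for 19.9% of all genes, and limma-voom 48, against 17.4% of all genes.

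The count depends on which libraries enter. Without ANT1 and ANT3 it was 22, where 16.8% of all genes tested were called higher in ANT, and Rpl41, a very short large-subunit peptide, was called higher in SAS (log2 fold change 0.47). Without ANT4 and ANT5 it was 68, with 21.3% of all genes. Leaving out SAS6 gave 31 (13.5% of all genes), SAS2 32 (15.4%), ANT1 33 (14.99%) and ANT3 33 (14.7%).

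All 4 ANT libraries lay above all 4 SAS libraries for 22 core genes, where 17.7% of all tested genes did so. The reverse was seen for 0 core genes and for 20.5% of all tested genes, and the ranges of the other 55 core genes overlapped. SAS1 was the highest SAS library for 71 core genes and ANT5 the lowest ANT library for 76, and SAS1 exceeded ANT5 for 53. ANT1 was the highest of all 8 libraries for 63 genes and SAS2 the lowest for 62. Spread within groups was larger in ANT, for core genes and for all genes. The median coefficient of variation of core genes was 19.97% in ANT and 15.8% in SAS, against 17.6% and 13.4% over all genes tested. The SD of log2 CPM was larger in ANT for 66 of the 77, a share that was not counted over all genes. Most core genes move together from library to library, so these 66 are not separate observations.

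**Figure D2:**
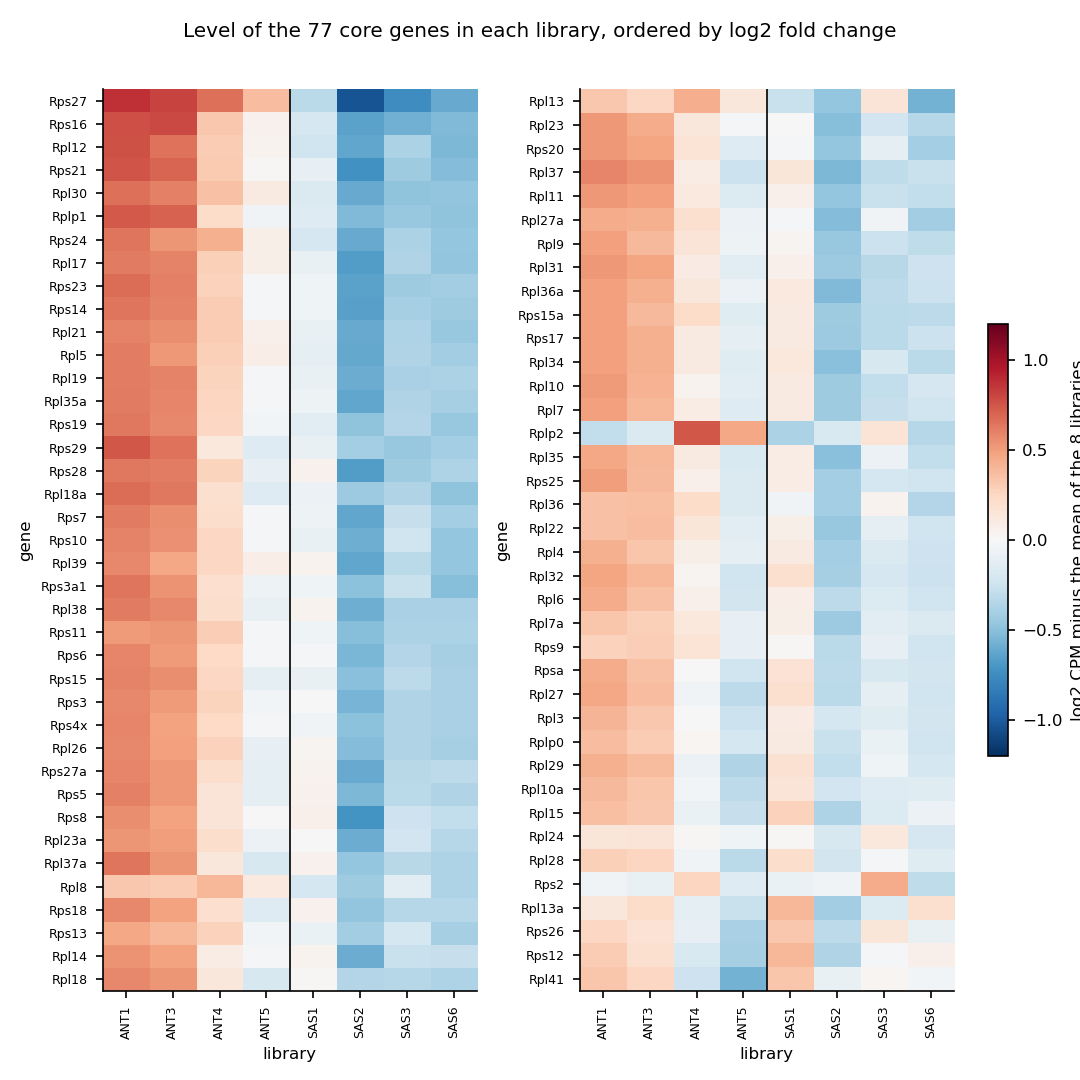
Each row is 1 of the 77 core genes and each column a library; colour gives log2 CPM minus the gene's mean over the 8 libraries, and genes are ordered by log2 fold change from Rps27 (-1.35) to Rpl41 (0.08). Most rows share 1 pattern, with ANT1 highest and SAS2 lowest, and Rplp2, Rps2 and Rps12 depart from it.

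The largest difference was in Rps27, which encodes a zinc-finger protein of the small subunit (chr3:90212522-90213651, mm10). It was at 1792 CPM in ANT1, 1713 in ANT3, 1543 in ANT4 and 1259 in ANT5, and at 777, 477, 581 and 640 in SAS1, SAS2, SAS3 and SAS6. Every ANT library lay well above every SAS library, by 2.55-fold on average (log2 fold change -1.35, SE 0.17, adjusted p = 0.000148 by edgeR). The call held without each single library and without either pair of ANT libraries, with log2 fold changes from -1.52 to -1.18.

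Rps16, a protein of the small subunit's head (chr7:28350652-28353155), was at 1827, 1851, 1337 and 1107 CPM in ANT and 927, 684, 716 and 740 in SAS, in replicate order. The groups did not overlap and the log2 fold change was -0.997 (SE 0.18, adjusted p = 0.00166). Rpl12, part of the base of the large subunit's stalk where elongation factors bind (chr2:32961559-32965345), was at 2660, 2460, 1934 and 1613 CPM in ANT and 1324, 1017, 1205 and 1078 in SAS. It also separated the groups (-0.91 on the log2 scale, SE 0.17, adjusted p = 0.00191). Its locus overlaps Lrsam1 on the other strand, and the strand setting of the counting is unknown. The loci of Rpl5, Rpl15, Rpl18, Rpl23a, Rpl28, Rpl31, Rpl32, Rpl35, Rps18, Rps25, Rps27a and Rps28 overlap a gene on the other strand likewise.

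The other 5 genes among the largest falls also separated the groups: Rps21 (-0.90), Rpl30 (-0.87), the acidic stalk protein Rplp1 (-0.84), Rps24 (-0.84) and Rpl17 (-0.79), with adjusted p-values from 0.00106 to 0.00488. Rps24 had the highest level per kilobase of transcript of any core gene, 5043 CPM per kb in ANT and 2816 in SAS. Rplp1 followed with 4431 and 2473 CPM per kb, and Rps27 came next with 4570 and 1794, in the order of the mean over all 8 libraries. The next 5 by level per kb were Rps29, Rps4x, Rps18, Rps12 and Rps14. Of these 5, all but Rps12 were called higher in ANT, with log2 fold changes from -0.57 (Rps18) to -0.77 (Rps14).

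Members chosen for their known roles were split. The 5S particle proteins Rpl5 and Rpl11, which can also bind Mdm2, fell by 0.75 (adjusted p = 0.00311) and 0.50 (0.0452) on the log2 scale. Rps6, the substrate of S6 kinase, was at 1193, 1131, 936 and 783 CPM in ANT and 784, 543, 623 and 602 in SAS, so SAS1 slightly exceeded ANT5 (-0.66 on the log2 scale, adjusted p = 0.00884). Rps19, a gene mutated in Diamond-Blackfan anaemia, fell by 0.73 without overlap (0.00461). Rpl38 (-0.67), Rpl39 of the exit tunnel (-0.67), Rps4x (-0.65), the ubiquitin fusion Rps27a (-0.61) and Rpl36a (-0.49) were called too.

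Not called were Rpl10 (-0.42), a late-joining protein of the large subunit, Rpl7 (-0.42), Rps25 (-0.40), Rpl22 (-0.37), Rpsa (-0.29), Rpl3 (-0.26), which reaches towards the peptidyl transferase centre, the stalk anchor Rplp0 (-0.25) and Rpl10a (-0.21), with adjusted p-values from 0.0703 to 0.350. Among ribosomal proteins whose genes have other names, Fau, a fusion of a ubiquitin-like protein with a small-subunit protein, was higher in ANT (-0.76, adjusted p = 0.0137). Rack1, a scaffold on the small subunit, was not called (-0.39, adjusted p = 0.0892).

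The spread was largest for Rplp2, Rpl37, Rps28 and Rps12 and smallest for Rpl24, Rpl8, Rps9 and Rps13. Rpl8, which lies next to the peptidyl transferase centre, was called with little spread: 1797, 1765, 1888 and 1555 CPM in ANT against 1234, 1063, 1307 and 1107 in SAS (-0.57 on the log2 scale, SE 0.11, adjusted p = 0.00287). Rpl24 and Rpl13a had unusually few counts, 6.23 to 7.94 and 34.3 to 60.1 CPM. They share 484 and 621 exon bases on the same strand with the annotated genes Gm28037 and Gm45713, both of which are listed at 0 counts, so the levels of both are uncertain.

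To ask whether transcripts of single core genes changed against those of the other core genes, the libraries were also scaled to their summed core counts. Proteins were not measured. On that scale 6 core genes were called in favour of ANT and 10 in favour of SAS, as were 3.63% and 42.9% of all tested genes. The shift of all genes is a consequence of the scale, whose median over all genes is 0.53, and the values here are only relative to other core genes. Rps27 (-0.82), Rps16 (-0.44), Rps21 (-0.35), Rpl12 (-0.35), Rpl30 (-0.33) and Rps24 (-0.30) took a smaller part of the core counts in SAS. Rpl41 (0.65), Rps12 (0.59), Rps26 (0.57), Rpl13a (0.56), Rpl28 (0.45), Rpl15 (0.38), Rpl10a (0.35), Rpl29 (0.35), Rpl3 (0.30) and Rplp0 (0.30) took a larger part, with the counts of Rpl13a uncertain as above. Of these 16 genes, 7 stayed called without each single library in turn: Rps27, Rps16, Rpl13a, Rpl28, Rpl41, Rps12 and Rps26. All 16 kept their sign in every such fit. Without ANT1 and ANT3, Rps27, Rpl41, Rps12 and Rps26 were called.

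**Figure D3:**
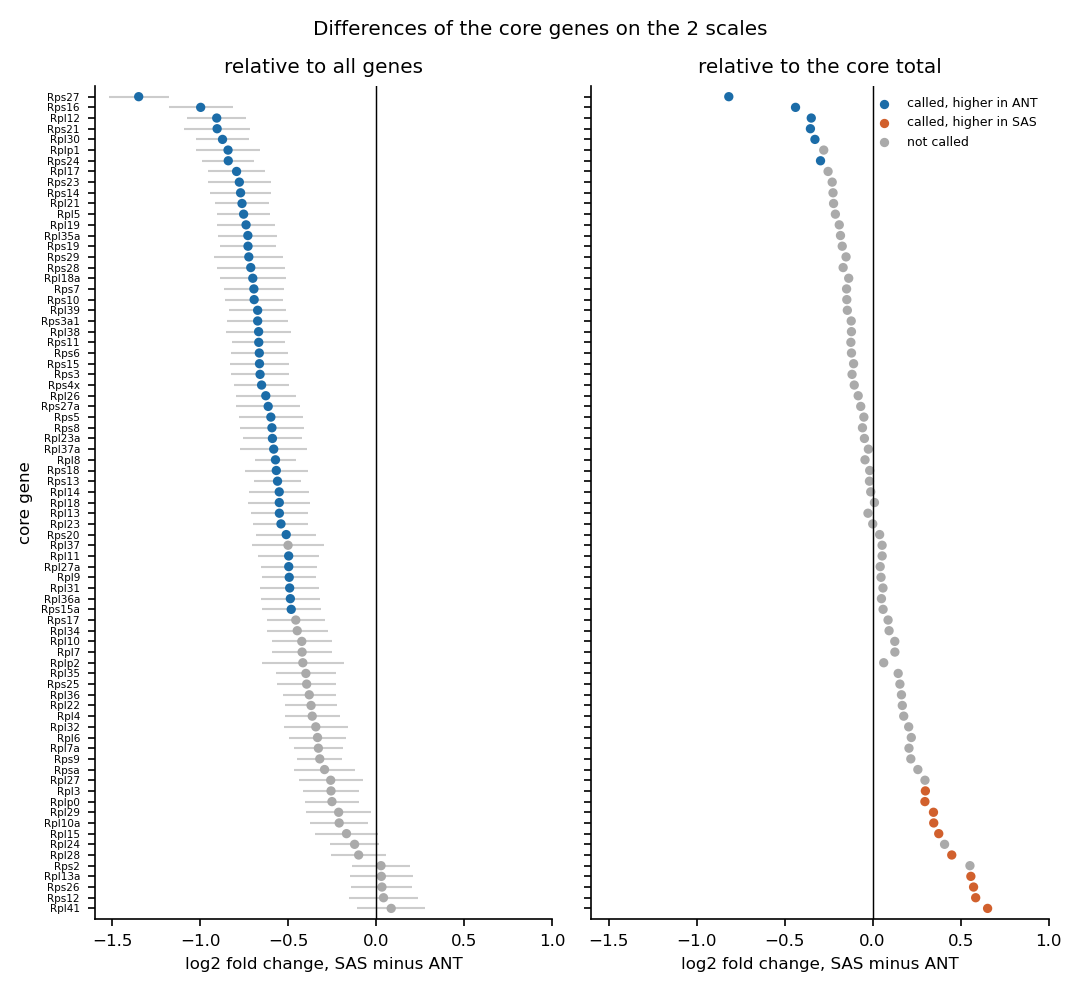
Log2 fold change (SAS minus ANT) of each core gene, scaled with all genes (left, bars are 1 SE) and relative to the core total (right, no error drawn). Genes keep the same order in both panels, with 48 called higher in ANT on the left and 6 higher in ANT and 10 higher in SAS on the right.

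The parts of the core counts show this directly. Rps27 made up 1.72%, 1.72%, 1.86% and 1.83% of core counts in ANT and 1.07%, 0.909%, 0.951% and 1.12% in SAS. Rps26, which lies at the messenger RNA exit channel (chr10:128624534-128626747), made up 0.568%, 0.564%, 0.566% and 0.557% in ANT and 0.862%, 0.765%, 0.907% and 0.820% in SAS. Its share hardly varied in ANT although the core total differed widely there, and the groups were far apart.
Rpl41 (chr10:128548114-128549305) made up 0.619%, 0.611%, 0.520% and 0.505% in ANT and 0.889%, 0.921%, 0.856% and 0.878% in SAS. Rpl28 was at 0.631%, 0.650%, 0.633% and 0.630% in ANT and 0.860%, 0.889%, 0.869% and 0.857% in SAS. Both separated the groups without overlap, and Rpl28 overlaps Ube2s on the other strand. On the scale of all genes these 3 and Rps12 did not differ beyond the spread, with log2 fold changes of 0.03 (Rps26), 0.08 (Rpl41), -0.10 (Rpl28) and 0.04 (Rps12) and adjusted p-values from 0.648 to 0.902. Of the genes with a promoter window, the pyrimidine run was in 6 of 8 with a larger part in SAS and in 2 of 5 with a smaller part, and in 18 of 34 core genes called higher in ANT and 13 of 23 not called.

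Most core genes followed the core total from library to library. Pearson's r between a gene's log2 CPM and that of the core total over the 8 libraries had a median of 0.98 and exceeded 0.9 for 63 of 77 genes. This is a description, since each gene is part of the total and the groups differ in it. The lowest values were those of Rps2 (0.02), Rplp2 (0.03), Rpl41 (0.41), Rpl13a (0.48), Rps12 (0.52) and Rps26 (0.54). Rplp2, the partner of Rplp1 in the stalk, was at 615 and 672 CPM in ANT1 and ANT3, 1269 and 1045 in ANT4 and ANT5, and 583, 669, 848 and 598 in SAS. Its high libraries were those in which Rplp1 was low among the ANT libraries (1897 and 1582 CPM against 2708 and 2658). Rps2, at the entry channel for messenger RNA, was at 1025, 990, 1262 and 947 CPM in ANT and 998, 1022, 1432 and 852 in SAS, highest in SAS3 and ANT4. The early-response gene Jund also differed among libraries, at 163, 132, 494 and 416 CPM in ANT and 75.2, 185, 340 and 89.6 in SAS, and its part in these values was not tested. GC content of the coding sequence had a Pearson r of 0.19 with the log2 fold change over the 77 genes. With each gene's r to the core total, GC content had a Pearson r of -0.26 and a Spearman r of -0.30.

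**Figure D4:**
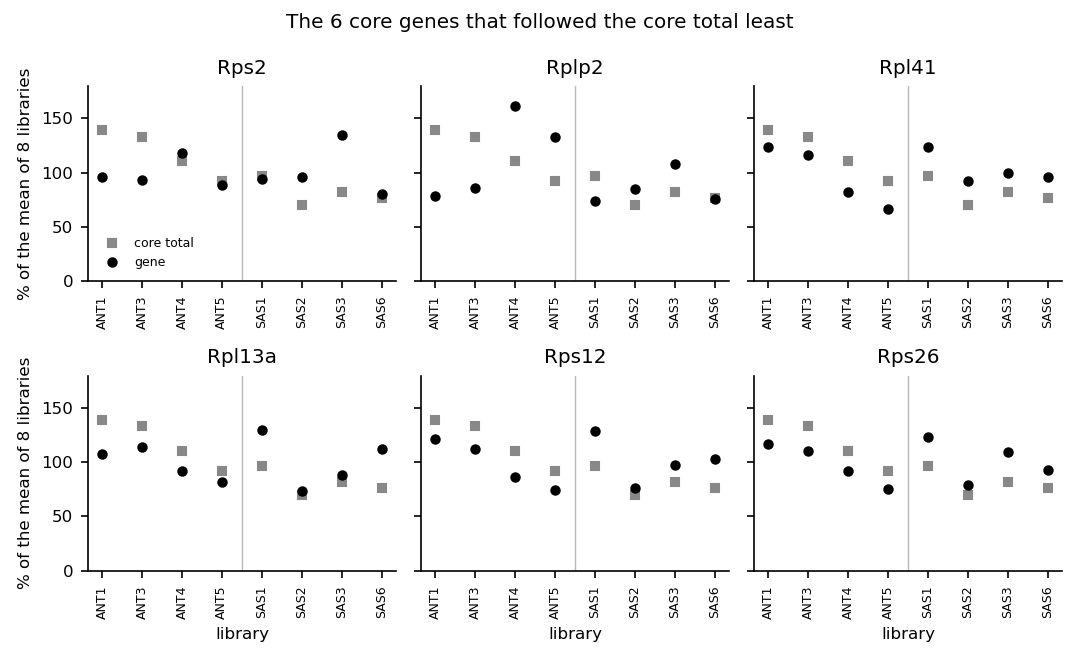
Level of the 6 core genes with the lowest correlation to the core total, in % of each gene's mean over the 8 libraries (black), beside the core total on the same scale (grey squares). Rplp2 is highest in ANT4 (1269 CPM) and ANT5 (1045 CPM), where the core total is lower than in ANT1 and ANT3.

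Among the paralogs, Rps27l changed in the opposite direction to its core gene Rps27. Both have coding sequences of 255 bases, which differ at 61 of them (76.1% identity), and Rps27l is a known p53 target. The first 120 coding bases of each, from GENCODE M21 on GRCm38, hold 28 differences, which are in capitals to show where the genes can be distinguished.
Rps27: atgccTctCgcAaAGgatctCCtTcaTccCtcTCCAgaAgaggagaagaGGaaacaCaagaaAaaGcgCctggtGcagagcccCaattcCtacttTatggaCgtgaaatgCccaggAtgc
Rps27l: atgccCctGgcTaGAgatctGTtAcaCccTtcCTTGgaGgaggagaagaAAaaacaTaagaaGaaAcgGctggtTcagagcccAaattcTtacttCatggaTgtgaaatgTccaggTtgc
Rps27l (chr9:66946086-66949516) was at 16.3, 17.6, 13.7 and 10.997 CPM in ANT and 31.1, 18.7, 23.2 and 20.8 in SAS. All SAS libraries lay above all ANT libraries, with a difference of 0.68 on the log2 scale (SE 0.19, adjusted p = 0.0191). The call was lost without SAS1 (0.51, adjusted p = 0.0513) and without ANT4 and ANT5 (0.44, 0.0948). Counted as a part of the pair, Rps27l held 0.902%, 1.02%, 0.882% and 0.866% of Rps27 and Rps27l counts in ANT and 3.85%, 3.77%, 3.84% and 3.15% in SAS. The groups were far apart on this measure, which moves with the fall of Rps27 as well as with the rise of Rps27l. Rps27l stayed a minor transcript of the pair in every library.

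**Figure D5:**
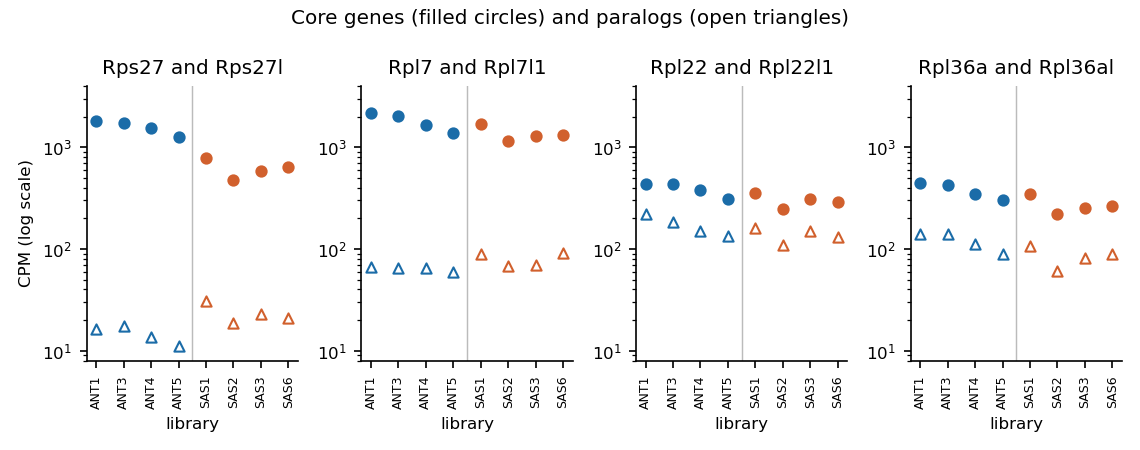
CPM (log scale) of 4 core genes (filled circles) and their paralogs (open triangles) in each library, ANT in blue and SAS in orange. Rps27 is lower and Rps27l higher in SAS without overlap, while Rpl22l1 and Rpl36al keep a like distance from their core genes.

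Rpl7l1, which takes part in assembly of the large subunit, was at 66.1, 65.2, 64.3 and 58.9 CPM in ANT and 89.998, 67.8, 68.9 and 90.4 in SAS. The groups did not overlap, but the difference of 0.32 on the log2 scale (SE 0.12) missed the threshold at an adjusted p of 0.0651. It passed with DESeq2 (adjusted p = 0.0461), without SAS2 (0.0375) and with library size as the only scaling (0.0255). It missed the threshold without each other single library, with adjusted p-values from 0.0506 (SAS3) to 0.183 (SAS6). The same was so without ANT1 and ANT3 (0.0882), without ANT4 and ANT5 (0.197) and with limma-voom (0.0750). Rpl7l1 held 3.45% ± 0.533 of the Rpl7 pair in ANT and 5.52% ± 0.620 in SAS (SD, n = 4 each), and its coding sequence is 56.0% identical to that of Rpl7. Relative to the core total, Rpl7l1 (0.84) and Rps27l (1.21) were called higher in SAS, on a scale where 42.9% of all genes were.

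Rpl22l1, the paralog of Rpl22, whose loss in mice impairs alpha-beta T cell development, was the most abundant paralog. It was at 219, 186, 151 and 134 CPM in ANT and 159, 110, 151 and 132 in SAS, with overlapping groups (log2 fold change -0.32, adjusted p = 0.164). Its part of the pair was 30.5% ± 2.11 in ANT and 31.3% ± 0.848 in SAS. Rpl36al held 23.97% ± 0.742 and 23.7% ± 1.54 of its pair with Rpl36a, and its own level differed by -0.50 on the log2 scale (adjusted p = 0.0634). Rpl3l, Rpl10l and Rpl39l, which are known from muscle and testis, were at or near 0 counts: Rpl10l had no count in any library, Rpl3l reached 0.0345 CPM in SAS3 alone and Rpl39l was at most 0.689 CPM, in ANT5.

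Of the 8 genes whose names add another word, 5 passed the low-count filter. Rps27rt, a retrogene of Rps27 on chromosome 9, was at 5.35, 7.50, 5.70 and 3.48 CPM in ANT and 2.44, 1.65, 1.83 and 3.34 in SAS. It fell by 1.25 on the log2 scale (SE 0.29, adjusted p = 0.00702). Its coding sequence is 100% identical to that of Rps27, so its counts cannot be told apart from reads of Rps27, and it held 0.344% and 0.372% of the counts of the 2 genes in ANT and SAS. Rps19bp1, which is a regulator of Sirt1 and no ribosomal protein, was higher in SAS (0.44, SE 0.13, adjusted p = 0.0210), at 8.24 to 9.44 CPM in ANT and 10.5 to 13.5 in SAS. That call was lost without ANT1, ANT3, SAS1 or SAS3, with adjusted p-values from 0.0564 to 0.0644. Rpl9-ps6 (-0.27), Rpl10-ps3 (-0.35) and Rpl36a-ps1 (-0.23) were not called, Rpl9-ps1 and Rps12-ps3 stayed under 0.4 CPM, and Rpl36-ps4 had no count. Pseudogene rows named Rpl or Rps took 0.0218% ± 0.00313 of counts in ANT and 0.0174% ± 0.00129 in SAS (exact permutation p = 0.0857), or 0.256% and 0.279% of the core counts.

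The lists of other genes are read against the 19.8% of all tested genes that were called higher in SAS and the 17.7% higher in ANT. These shares belong to the fit on all 8 libraries. Without single libraries 13.5% to 17.4% of all genes were higher in ANT, and 3964 to 4700 genes were called in all. Without ANT1 and ANT3, 16.8% were higher in ANT (4779 of 13245 called in all), and without ANT4 and ANT5, 21.3% (5913 of 13288). Counts below from fits without libraries are to be read against these. Of 45 tested nucleolar assembly factors, 22 rose in SAS and 2 fell (median log2 fold change 0.36). Nop16 was at 18.9, 17.0, 18.3 and 18.8 CPM in ANT and 37.6, 29.4, 33.1 and 36.3 in SAS, a rise of 0.90 on the log2 scale (adjusted p = 0.000127). Mrto4 (0.76) and the nucleolar chaperone Nolc1 (0.71) rose likewise, while Wdr12 of the PeBoW complex (-0.84, adjusted p = 0.000348) and Imp3 (-0.46) fell. Leaving out single libraries or either pair of ANT libraries gave 19 to 26 factors higher in SAS. Of 15 genes of RNA polymerase I transcription, 3 were higher in SAS, the subunits Polr1b (0.995) and Polr1e (0.38) and the factor Ubtf (0.45), a share like that of all genes, and 1 in ANT, Znrd1 (-0.47). The count higher in SAS was 1 without ANT3 or without SAS6, and that higher in ANT was 0 without ANT1, ANT3, ANT4, SAS2, SAS3 or SAS6. Of 74 mitochondrial ribosomal protein genes, 6 rose in SAS and 4 fell, with a median of 0.00649. Without ANT5, SAS1 or SAS6, 2 rose, and without SAS3, 3 rose. Without ANT4, SAS2 or SAS3, 2 fell. Without ANT4 and ANT5, 5 rose and 10 fell, and without ANT1 and ANT3, 10 rose and 4 fell.

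Of 23 initiation factor genes, 8 were higher in SAS and 0 in ANT. Eif5a, which helps ribosomes past difficult sequences, was at 251, 255, 302 and 269 CPM in ANT and 541, 517, 607 and 512 in SAS (1.02, adjusted p = 3.84e-05), and Eif4g3 (0.93) and Eif3b (0.72) rose too. The count higher in SAS fell to 4 without SAS1 or without SAS6 and to 5 without ANT3, ANT4 or SAS3. That higher in ANT was 1 without ANT3 and 2 without ANT1 and ANT3. Of 19 elongation factors and other known TOP transcripts, 2 were higher in ANT, Tpt1 (-0.75, adjusted p = 0.000646) and Eif4a2 (-0.72), and Eif3l was higher in SAS (0.40). The count higher in SAS was 0 without ANT3, ANT5, SAS1, SAS3 or SAS6, 2 without ANT1 and ANT3 and 3 without ANT4 and ANT5. Without ANT5 the count higher in ANT was 4, and without ANT4 and ANT5 it was 6. The abundant TOP transcripts Eef1a1 (-0.33, adjusted p = 0.199) and Eef2 (-0.06, 0.696) were not called. Of 13 host genes of small nucleolar RNAs, 4 were higher in ANT and 0 in SAS, among them Snhg8 (-0.76), Snhg12 (-0.75) and Epb41l4aos (-0.82).

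Of 19 genes that control TOP translation, Tia1 (0.83), Rheb (0.41) and Mtor (0.30) were higher in SAS and Rictor (-0.49) in ANT, and Larp1, which binds TOP messages, was not called (0.40, adjusted p = 0.225). Without ANT4 and ANT5, 7 of these were higher in SAS and 4 in ANT, where 21.3% of all genes were higher in ANT. The count higher in ANT was 2 without ANT5, without SAS2, or without ANT1 and ANT3. Of 10 genes of ribosome quality control, Hbs1l (0.53) was the only one called, while without ANT4 and ANT5, 2 were higher in SAS and 4 in ANT, and without SAS6, 2 in SAS. In the Myc network, Myc was at 33.6, 29.3, 76.998 and 73.8 CPM in ANT and 115, 82.6, 115 and 123 in SAS (1.03, adjusted p = 0.0229). Mxd4 (0.93) and Mxd1 (0.52), which antagonize Myc, rose as well, while their relatives Mxi1 (-0.72) and Mga (-0.34) fell. Without ANT1, ANT3, SAS2, SAS3 or SAS6, 1 gene of the network was called higher in ANT. Of 16 genes of p53 and ribosomal protein sensing, 6 were higher in SAS, among them Aen (0.72), Pmaip1 (1.90) and Phlda3 (2.33, at most 0.771 CPM), and 3 in ANT, Btg2 (-0.73), Bbc3 (-2.64) and Mdm4 (-0.37). Trp53 (0.26, adjusted p = 0.0950) and Mdm2 (-0.07, 0.681) were not called.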

How the data were processed

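The deposited values are raw counts, whole numbers for each gene and each of 8 libraries. The submitters' processing notes name STAR, featureCounts and the build mm10. Strand setting, annotation release and the treatment of multi-mapped reads are not given in the sources used here, so genes with near-identical copies or overlapping neighbours are uncertain. The labels describe RNA extracted from sorted cells and strand-specific TruSeq mRNA libraries. Of 39056 IDs, 38872 matched GENCODE M21 without the version suffix and 34299 with it, which gave symbols and mm10 coordinates.

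Genes passing edgeR's default filter (edgeR 4.0.16, R 4.3.3) were scaled with TMM factors and tested for SAS minus ANT on all 8 libraries with the robust quasi-likelihood test, without covariates. P-values were Benjamini-Hochberg adjusted over all 12619 genes and called under 0.05; 4725 genes (37.4%) were called. CPM use the TMM-scaled library size. SE is the absolute log2 fold change over the square root of F. DESeq2 1.42.0 and limma 3.58.1 (voom) were alternatives. Level per kb uses the shortest consensus coding transcript. The fit was tested on simulated data. Shares were compared by exact two-sided permutation tests.

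Members and lists were chosen with earlier results of these data known. Genes named are the 8 core genes highest per kb, the 8 with the largest called change, every paralog or look-alike with a count, the 4 with most and the 4 with least spread, a fixed set of members, and the 3 smallest p in each direction of each pathway list. Names outside the rule (those of the relative scale, the lowest correlations, Cd4, Jund, Trp53, Mdm2, Larp1, Eef1a1, Eef2 and marker genes) were chosen after their values were seen. Not every gene selected this way is reported here. No library was a duplicate of another, but the ANT libraries were not evenly spread. The chi-square per degree of freedom between the counts of library pairs was 10.3 for ANT1 and ANT3 and 21.1 for ANT4 and ANT5. It was 98.2 to 135 for the other ANT pairs and 25.2 to 98.7 for the SAS pairs. The closer ANT pairs are those left out together, and the cause of this pattern was not tested. The fits relative to the core total without libraries were added after seeing the data.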

Additional observations from a re-analysis of the deposited data

Results flagged for a closer look

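Of 130 groups of 4 values examined (each member and pair share, in ANT and in SAS), 7 held 1 library far from the other 3, with a gap to its neighbour above Dixon's 95% limit for 4 values. Chance marks about 1 in 20 such groups. SAS1 stood apart upwards for Rplp1 (1461 CPM, others 1127 to 1184) and Rps29 (909 CPM, others 705 to 730). SAS6 had the lowest Rps27l part of its pair, 3.15% (others 3.77% to 3.85%). The remaining 4 rest on very few counts: Rps12-ps3 at 0 CPM in SAS3, Rpl39l at 0.689 CPM in ANT5 and 0.140 CPM in SAS2, and Rpl3l at 0.0345 CPM in SAS3.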

How the results depend on the processing

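Most other scalings, filters and tests left the number of core genes higher in ANT between 36 and 56, with 9.42% to 19.9% of all genes. Scaling to the core total gave 6 (3.63% of all genes), with 10 higher in SAS (42.9%) and a median log2 fold change of -0.011. A threshold of 0.01 gave 24 (10.3%, with 3044 of all genes called). Testing against a fold change of 1.2 gave 31 (11.5%). Leaving out ANT replicates 1 and 3 gave 22 (16.8%), with 1 higher in SAS, and leaving out 4 and 5 gave 68 (21.3%). Without single libraries the count was 31 to 62, with 13.5% to 17.4% of all genes, and the median -0.65 to -0.47. The share difference without single libraries was -2.95 to -1.83 percentage points. Relative to the core total, leaving out single libraries gave 5 to 13 core genes higher in SAS and 2 to 7 higher in ANT. Leaving out ANT replicates 1 and 3 gave 3 and 1. Shares of all genes in these relative fits were not counted.

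Replicate numbers 1 and 3 occur in both groups, and the deviations of same-numbered libraries had correlations of 0.29 (number 1) and -0.12 (number 3). ANT3 correlated with SAS1 at 0.31, and the numbers are not taken as pairs. With the replicate number as a block, 66 core genes were higher in ANT (median -0.62), with 21.1% of all genes. A number found in 1 group only adds nothing to the difference in that fit. The difference therefore rests on the libraries numbered 1 and 3, and the count cannot be set beside those of the other fits. Of the 46 named members tested, 3 changed sign in the blocked fit, none of them called: Rpl13a (-0.057), Rplp2 (0.13) and Rps12 (-0.056).

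Scaling to the core total moved the median of all genes to 0.53 and left 38 of 77 core genes above 0, against 5. Of the named members it turned the sign of Rpl10 (0.13), Rpl10a (0.35), Rpl11 (0.054), Rpl22 (0.17), Rpl24 (0.41), Rpl3 (0.30), Rpl36a (0.050), Rpl37 (0.054), Rpl7 (0.13), Rplp0 (0.30), Rplp2 (0.063), Rps25 (0.15), Rps9 (0.22), Rpsa (0.26), Rpl10-ps3 (0.22), Rpl36a-ps1 (0.32), Rpl9-ps6 (0.31), Rpl22l1 (0.23) and Rpl36al (0.037). Without single libraries Rpl13a ran from -0.11 to 0.15 and Rps12 from -0.097 to 0.16. Both were below 0 without ANT replicate 4 or 5 or SAS replicate 1, and Rpl13a also without SAS replicate 6. Without ANT replicates 4 and 5, Rpl13a was at -0.16, Rplp2 at 0.044 and Rps12 at -0.22. Without ANT replicates 1 and 3, Rpl10a was at 0.077, Rpl3 at 0.00467, Rpl10-ps3 at 0.30, Rpl36a-ps1 at 0.044 and Rpl9-ps6 at 0.026. Of 1012 refits of 46 named members, 856 kept both sign and side of the threshold. Scaling by library size alone moved the median of all genes to 0.09, with 13.2% of genes higher in ANT. The cause of these changes was not tested. No fit at lower depth was run.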
